A study of Homo sapiens and Mus musculus with 7 samples.

Results

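The 10 genes DKK1, DKK4, AXIN2, LGR5, NKD1, SP5, RNF43, ZNRF3, NOTUM and LEF1 were followed as transcriptional targets and antagonists of Wnt signalling. They are 10 of 19775 human genes and, under the same symbols, 10 of 18193 mouse genes that the arrays measured through a probe set with a single symbol. The set was proposed because DKK4 was higher in HepG2 cells carrying the hairpin shRNA6 than in their control, so every value of that comparison is a description and was not tested. The human arrays held 18 probe sets for these genes and the mouse arrays also 18. Total RNA of 7 samples was hybridised to Affymetrix arrays, 1 array per sample. HepG2, a human liver cancer line, was represented by a stable FAS knockdown with shRNA6 and by a control with pLKO, the lentiviral vector used to express hairpins. HeyA8, a human ovarian cancer line, was represented by a stable FAS knockdown with shRNA4, one with shRNA6, and a pLKO control. Livers came from male C57/BL6 mice aged 2 months, 1 a Fas knockout and 1 wild type. FAS (CD95) is the cell surface receptor for Fas ligand. The sources used here do not give whether a knockdown line was a clone or a pool, how many animals gave RNA for a liver array, or how the mouse gene was altered.

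Wnt ligands bind Frizzled receptors and the co-receptors LRP5 and LRP6, which stops a cytoplasmic complex of axin, APC and kinases from marking beta-catenin for destruction. Beta-catenin then enters the nucleus and joins factors of the TCF/LEF family on target genes. Many of these targets code for inhibitors of the pathway and so close feedback loops. In the liver the pathway is active in hepatocytes around the central vein and sets their metabolic profile. HepG2 is known to carry a mutated beta-catenin gene whose product escapes destruction.

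Promoter sequences from RefSeq (GRCh38.p14) reached from 250 bases before the gene start to 50 after it. Those of 4 of the 10 genes were used, SP5, DKK1, LEF1 and RNF43. No promoter of the other genes, DKK4 among them, is reported here. 3 versions of the TCF/LEF core were searched on both strands. CTTTGAT occurred in 2.62% of 35116 promoter windows, CTTTGTT occurred in 5.20% and CTTTGAA occurred in 4.43%, and any of the 3 in 11.5%. A match is a description of these letters. The SP5 window (chr2:170715087-170715386, plus strand) held 3 matches, starting 148, 109 and 84 bases before the gene start. The DKK1 window (chr10:52314031-52314330, plus strand) held 2, starting 95 and 76 bases before it. No match was found in the LEF1 window (chr4:108166252-108166551, minus strand) or in the 2 RNF43 windows. The sequences of SP5, DKK1 and LEF1 are shown 5′ to 3′. SP5 and DKK1 were higher in HepG2, and LEF1 was lower by its most intense probe set. RNF43, without a match, was higher too, and a link between matches and direction was not tested. Capitals mark the matches, which do not overlap each other. The capitals TTCAAAG show the motif CTTTGAA read from the opposite strand.
SP5: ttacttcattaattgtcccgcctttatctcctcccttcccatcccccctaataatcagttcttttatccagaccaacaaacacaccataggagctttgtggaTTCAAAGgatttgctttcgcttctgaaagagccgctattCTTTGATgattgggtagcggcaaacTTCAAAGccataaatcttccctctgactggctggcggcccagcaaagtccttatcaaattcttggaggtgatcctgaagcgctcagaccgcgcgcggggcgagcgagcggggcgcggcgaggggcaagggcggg
DKK1: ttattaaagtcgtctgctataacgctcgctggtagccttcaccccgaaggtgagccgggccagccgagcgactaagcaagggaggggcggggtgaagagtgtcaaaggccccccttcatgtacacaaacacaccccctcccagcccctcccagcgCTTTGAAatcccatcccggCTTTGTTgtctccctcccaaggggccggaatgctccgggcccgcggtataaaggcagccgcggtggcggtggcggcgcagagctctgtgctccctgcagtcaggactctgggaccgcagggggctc
LEF1: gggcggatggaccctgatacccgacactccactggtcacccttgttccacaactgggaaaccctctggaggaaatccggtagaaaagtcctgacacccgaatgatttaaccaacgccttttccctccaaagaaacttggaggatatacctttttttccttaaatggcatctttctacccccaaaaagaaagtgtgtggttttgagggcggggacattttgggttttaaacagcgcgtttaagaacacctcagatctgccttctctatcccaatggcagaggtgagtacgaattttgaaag

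The labels were checked on the targeted gene and on cell type markers. For FAS, signal of the representative (highest mean) probe set was 631 with shRNA6 and 1087 with pLKO in HepG2, 1184 with shRNA4, 856 with shRNA6 and 2104 with pLKO in HeyA8, and 169 in the knockout and 560 in the wild-type liver. All 8 measured hepatocyte markers were above the array median on both HepG2 arrays, and 1 or 2 of 8 on the HeyA8 arrays. Of 10 mesenchymal and ovarian markers 8 were above the median on every HeyA8 array, PAX8 and WT1 among them, and 6 and 7 were above it in HepG2 with shRNA6 and pLKO, PAX8 and WT1 again included, but MUC16 (CA125) was at 2.99 to 4.66 in HeyA8, far below it. In both livers 7 of 7 measured hepatocyte markers were above the median. Array medians lay between 57.8 and 63.4 on human and between 75.2 and 79.9 on mouse arrays, and values below them are called dim. The labels do not say that samples came from separate cultures or animals, so p-values measure only the spread between these arrays, which may be technical. No fold of a single comparison has a replicate check.

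The lines were compared across all 5 human arrays, with knockdown as a second term in the fit. This was not the comparison that proposed the genes, but they were chosen with earlier results of these data known. Most of the 10 genes stood higher in HepG2 than in HeyA8. AXIN2, SP5, RNF43, NKD1 and NOTUM differed by 19.5-fold to 97.6-fold, LGR5, ZNRF3 and DKK1 by 2.72-fold to 6.37-fold. LEF1 was the only one of the 10 that was lower in HepG2. NKD1 and RNF43 were above the array median in HepG2 alone, so that they entered the fit only where they were high, and like DKK4 they are described without a test. Of the 7 other genes, 6 rose in HepG2 against HeyA8 at an adjusted p of at most 0.05 by limma and 1 fell. Over all 13936 genes tested 30.0% rose and 28.0% fell, so that 58.0% differed in either direction. Both HepG2 arrays lay above all 3 HeyA8 arrays for 6 of these 7 genes, as for 38.5% of all genes, and both lay below them for LEF1, as for 34.8% of all genes. Differences are log2 ratios of signal plus a pseudocount of 12.6 (human) or 20.5 (mouse), which understates those of dim genes.

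**Figure D1:**
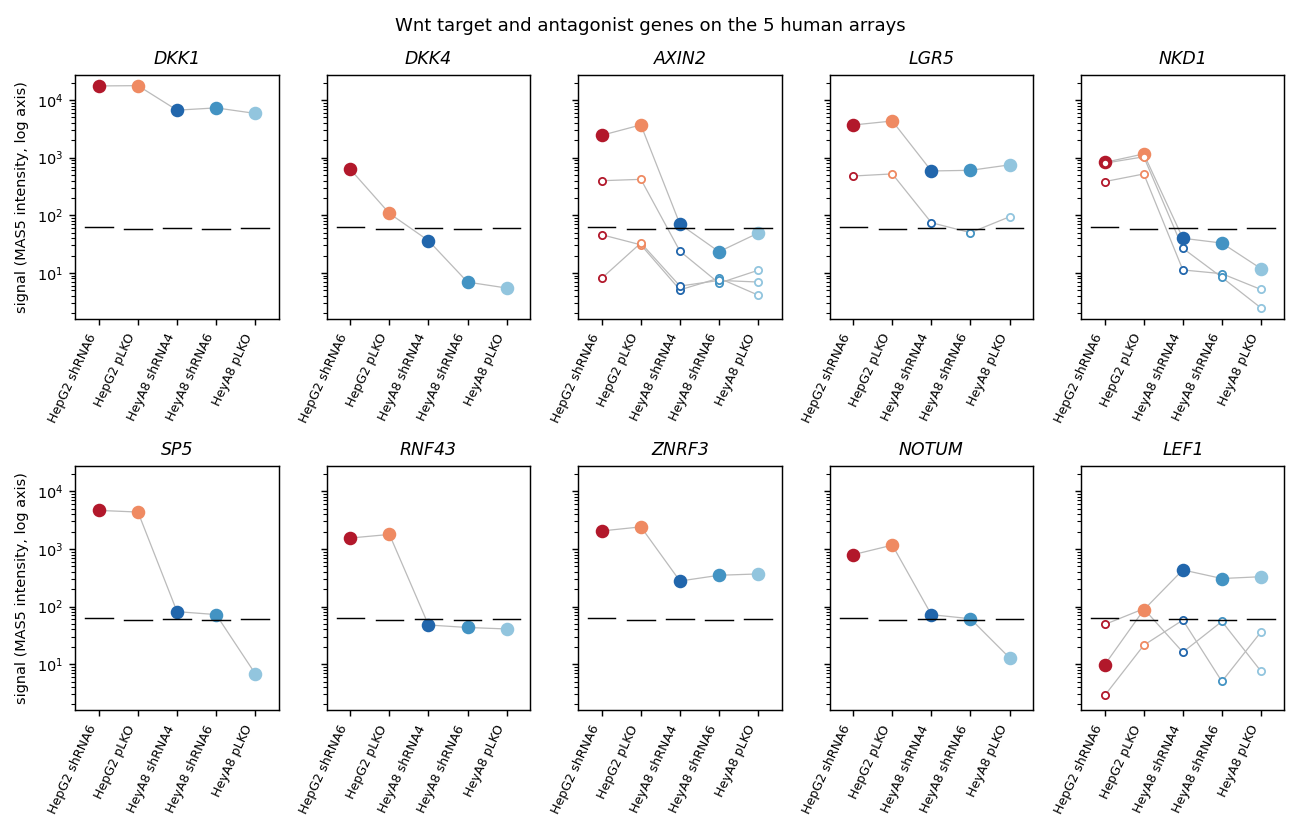
Signal (MAS5 intensity, log axis) of the 10 genes on each human array. Large filled points are the most intense probe set of a gene, small open points its other probe sets, grey lines join a probe set across arrays, and black dashes mark the median of each array. All genes but LEF1 are higher on both HepG2 arrays, and RNF43, NKD1 and DKK4 lie below the median on all 3 HeyA8 arrays.

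Among the secreted antagonists, DKK1 blocks the co-receptors LRP5 and LRP6. Its signal was 17513 with shRNA6 and 17721 with pLKO in HepG2, against 6654 with shRNA4, 7292 with shRNA6 and 5846 with pLKO in HeyA8. It was bright on all 5 arrays and higher in HepG2 by 1.44 ± 0.10 (SE, 5 arrays, adjusted p = 6.45e-06 by limma). NOTUM is an enzyme that inactivates Wnt ligands by removing their lipid. It gave 795 and 1164 in HepG2 with shRNA6 and pLKO, against 72.3, 61.5 and 12.9 in HeyA8 with shRNA4, shRNA6 and pLKO. The difference was 4.28 ± 0.45 (SE, adjusted p = 8.84e-05 by limma). DKK4, a relative of DKK1 and itself a target of beta-catenin, gave 625 and 108 in HepG2 with shRNA6 and pLKO. In HeyA8 it gave 36.3, 6.92 and 5.47 with shRNA4, shRNA6 and pLKO, all dim. Its values in HepG2 chose the gene set, so its line difference of 3.67 is given without a test.

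Of the cytoplasmic inhibitors, AXIN2 is a scaffold of the destruction complex and a standard readout of the pathway. Its most intense probe set gave 2440 and 3696 in HepG2 with shRNA6 and pLKO, against 70.0, 23.3 and 49.0 in HeyA8 with shRNA4, shRNA6 and pLKO. The difference was 5.67 ± 0.35 (SE, adjusted p = 4.07e-06 by limma). A second AXIN2 probe set gave 398 and 420 in HepG2 and at most 23.8 in HeyA8, a difference of 4.06, while its remaining 2 probe sets stayed dim on every array, at 45.9 or lower. NKD1 binds Dishevelled and holds back the signal. It gave 826 and 1159 in HepG2 with shRNA6 and pLKO, against 39.9, 32.9 and 11.9 in HeyA8 with shRNA4, shRNA6 and pLKO, all 3 of them dim. Its difference of 4.74 and those of its other 2 probe sets, 4.45 and 5.38, are given without a test.

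At the membrane, LGR5 is the R-spondin receptor known from stem cells, and RNF43 and ZNRF3 are ubiquitin ligases that remove Frizzled receptors. LGR5 gave 3682 and 4316 in HepG2 with shRNA6 and pLKO, against 587, 602 and 748 in HeyA8 with shRNA4, shRNA6 and pLKO. The difference was 2.56 ± 0.11 (SE, adjusted p = 6.42e-07 by limma), and its dimmer probe set also gave 2.56. RNF43 gave 1546 and 1783 in HepG2 with shRNA6 and pLKO, against 47.9, 43.3 and 40.9 in HeyA8, all dim, and its difference of 4.88 is given without a test. ZNRF3 gave 2051 and 2412 in HepG2, against 277, 349 and 368 in HeyA8, a difference of 2.67 ± 0.15 (SE, adjusted p = 2.59e-06 by limma). LGR5 and ZNRF3 were thus well above the median in HeyA8 too, whereas RNF43 was dim there on each array.

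The 2 transcription factors among the 10 genes differed in opposite directions. SP5, a zinc finger repressor induced by beta-catenin, gave 4658 and 4360 in HepG2 with shRNA6 and pLKO, against 81.6, 72.6 and 6.87 in HeyA8 with shRNA4, shRNA6 and pLKO. Its difference of 6.61 ± 0.42 (SE, adjusted p = 4.71e-06 by limma) was larger than that of AXIN2 in this fit, but between the shRNA6 arrays alone AXIN2 had the larger one. LEF1, a DNA-binding partner of beta-catenin, gave 9.78 and 87.8 in HepG2 with shRNA6 and pLKO, against 432, 307 and 329 in HeyA8 with shRNA4, shRNA6 and pLKO. That probe set fell in HepG2, with a difference of -3.09 ± 0.49 (SE, adjusted p = 8.71e-04 by limma). The other LEF1 probe sets were dim on every array but HepG2 pLKO (91.6 on 1 of them). That one gave a difference of 1.29, without a test, since it was kept through that array alone. With all LEF1 probe sets averaged the difference was -0.90 and the call was lost (adjusted p = 0.118 by limma). LEF1 was thus lower in HepG2 by its most intense probe set only.

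**Figure D2:**
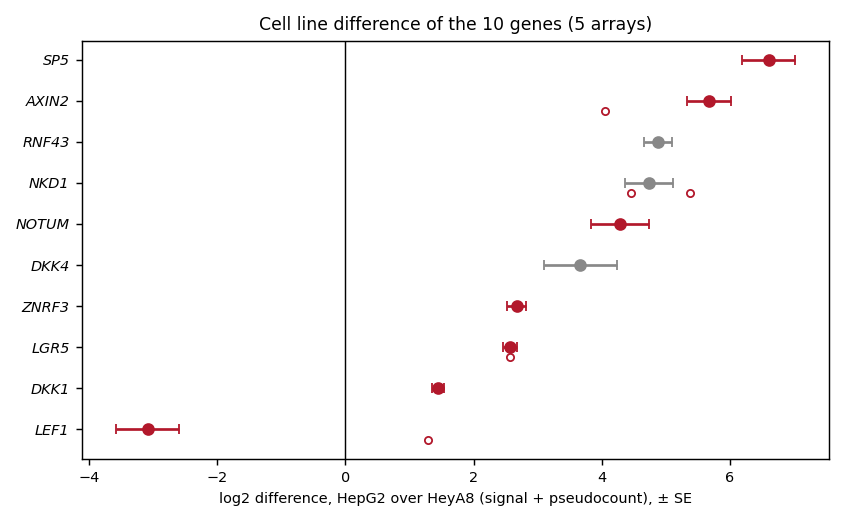
Log2 difference of HepG2 over HeyA8 for the 10 genes, from the fit of 5 arrays. Filled points with bars are the most intense probe set ± SE, open points are other probe sets above the array median, and DKK4, NKD1 and RNF43 in grey are described only. Differences run from -3.09 for LEF1 to 6.61 for SP5.

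The line differences were also computed between single arrays, where they kept their direction for all 10 genes but not always their size. Between the pLKO arrays alone they were 7.81 for SP5, 5.91 for AXIN2, 5.58 for NKD1, 5.53 for NOTUM and 5.07 for RNF43. Between the shRNA6 arrays alone, in the same order of genes, they were 5.78, 6.10, 4.20, 3.45 and 4.80. LGR5 gave 2.51 and 2.59, ZNRF3 2.67 and 2.51, DKK1 1.60 and 1.26 and LEF1 -1.77 and -3.84 between pLKO and between shRNA6 arrays. DKK4 gave 2.74 and 5.03. All 10 genes passed the filter on low values, but NKD1, RNF43 and DKK4 did so through the HepG2 arrays alone.

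**Figure D3:**
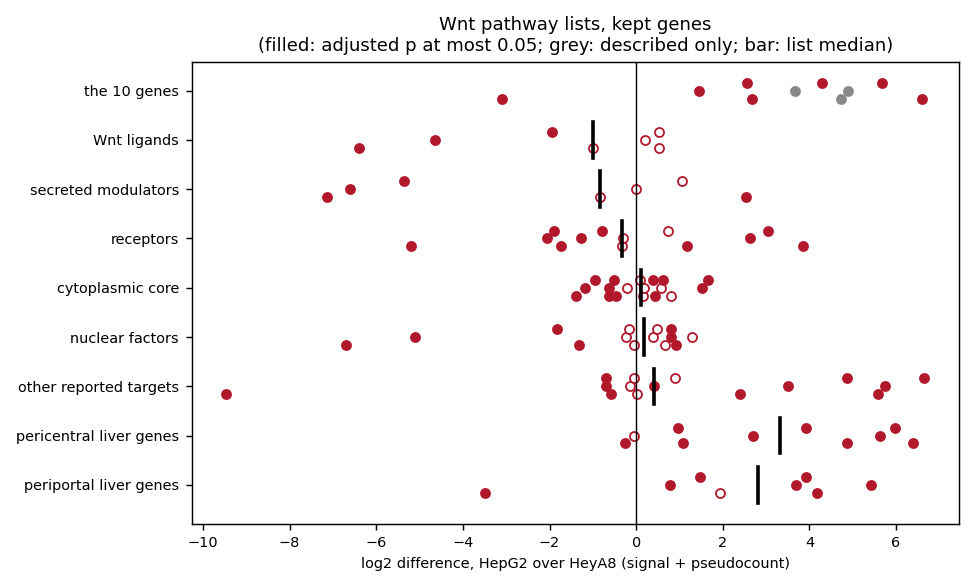
Log2 difference of HepG2 over HeyA8 for genes of the Wnt pathway that passed the filter on low values, grouped by role. Each point is a gene, filled where the adjusted p was at most 0.05 by limma, black bars are medians of the lists other than the 10 genes, and DKK4, NKD1 and RNF43 in grey are described only. Some filled points of the other lists are genes that were dim on every array of 1 line. Medians are 0.12 for the cytoplasmic core and -0.99 for the ligands.

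Other parts of the pathway were compared between the lines too. Receptors above the median in both lines differed in either direction, such as FZD5 (3.04) and FZD6 (-2.05). Counts here are set beside the 30.0% of all genes that rose and the 28.0% that fell. They include genes that were dim on every array of 1 line and passed the filter through the other alone. WNT5A, WNT5B, WNT10B, WLS, SFRP1, DKK3, FZD2 and PYGO1 were dim on both HepG2 arrays, and NKD2 on every HeyA8 array. Nothing is read from the calls of such genes, here or in the lists that follow. CTNNB1, the beta-catenin gene, gave 12339 and 13859 in HepG2 with shRNA6 and pLKO, against 12711, 11224 and 10900 in HeyA8, a difference of 0.18 (adjusted p = 0.176 by limma). Of 18 genes of the cytoplasmic core 5 rose and 7 fell, among them CTNNBIP1, an inhibitor of beta-catenin (1.52), and the kinase CSNK1A1 (-1.17). Of 7 kept ligands 3 fell and 0 rose at an adjusted p of at most 0.05 by limma, WNT5B (-6.41), WNT5A (-4.65) and WNT10B (-1.94), and none of the other ligands had an unadjusted p under 0.05. Among the secreted modulators, WLS, which carries ligands to the cell surface, fell (-7.13), as did SFRP1, an antagonist (-6.61), and DKK3 (-5.36). KREMEN1, a co-receptor of Dickkopf proteins, rose (2.54). Thus 1 of 7 kept secreted modulators rose and 3 fell. Of 13 kept receptors 4 rose, led by FZD4 (3.86) and FZD5 (3.04), and 6 fell, led by FZD2 (-5.19). The WNT10B call was lost without the HepG2 shRNA6 array (-0.71, adjusted p = 0.284 by limma), and that of NKD2 in the core (1.67) without either pLKO array (adjusted p = 0.182 and 0.106 by limma).

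Of 14 kept nuclear factors 3 rose and 4 fell, with CTBP2, a co-repressor, at -6.69 and TLE4, a Groucho-type co-repressor, at -5.10. Without the HepG2 shRNA6 array PYGO1 (-0.73, adjusted p = 0.277 by limma) and TCF7L1 (-1.05, adjusted p = 0.0599 by limma) were no longer among those that fell. Other reported targets were divided. Of 15 kept genes 7 rose and 4 fell. BMP4, a bone morphogenetic protein, was at 6.66, PROX1, a homeobox factor, at 5.74 and TNFRSF19 at 5.59. CD44, a hyaluronan receptor, was at -9.46, CCND1 at -0.70, MYC at -0.69 and PPARD at -0.59. BMP4 and PROX1 were dim on every HeyA8 array, and CD44 on both HepG2 arrays. Of 10 kept genes that hepatocytes near the central vein express under Wnt control, 8 rose and 1 fell. RGN, SLC13A3, RHBG, an ammonia carrier, and SLC1A2, a glutamate carrier, lay between 4.86 and 6.39, and all of them were dim on every HeyA8 array. Of the rest, above the median in both lines, CYP27A1 (3.93), SLC1A4 (2.70), GLUL (1.09) and AHR (0.96) rose and OAT (-0.26) fell. TBX3 was at -0.06, without a call. Of 8 kept periportal genes, which mark the opposite zone, 6 rose and 1 fell. Among those rising were ASS1, a urea cycle enzyme (4.17), and CDH1 (5.42). CDH1, HAL and ARG1 were dim on every HeyA8 array, and SLC1A3, which fell, on both HepG2 arrays. The call of ARG1, another urea cycle enzyme (3.68), was lost with probe sets averaged (0.95, adjusted p = 0.0548 by limma). Hepatocyte markers rose in 8 of 8 cases, and their summed signal was 157343 and 156437 in HepG2 with shRNA6 and pLKO, against 162 to 279 in HeyA8. Of these markers ALB, APOA1, TF, SERPINA1 and FGB were dim on every HeyA8 array. The part of these differences in liver genes in the Wnt target levels was not tested.

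In HepG2 the comparison of shRNA6 with its control chose the genes. DKK4 was higher with shRNA6 by 2.41 on the log2 scale, or 5.31-fold, and 20 of 12167 genes had a higher ratio. LEF1 moved the other way, at -2.17, with 9.78 with shRNA6 and 87.8 with pLKO, so that it was dim on the shRNA6 array. Its other kept probe set gave -0.76, less than 2-fold. Both are described from 1 array each. The other 8 lay between -0.60 and 0.10, with the sign of DKK1 and of SP5 depending on the scaling. AXIN2 was at -0.60, NOTUM at -0.54 and NKD1 at -0.48, where its other probe sets gave -0.43 and -0.37. ZNRF3 and LGR5 were both at -0.23, RNF43 at -0.20, DKK1 at -0.02 and SP5 at 0.10. In all, 1 of the 10 was 2-fold higher or more, as were 2.65% of all genes, and 1 was 2-fold lower or more, as were 2.56%. Below 0 were 8 of the 10 and 51.7% of all genes. Nothing is read from these counts, since this comparison chose the set. The second AXIN2 probe set gave -0.08.

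**Figure D4:**
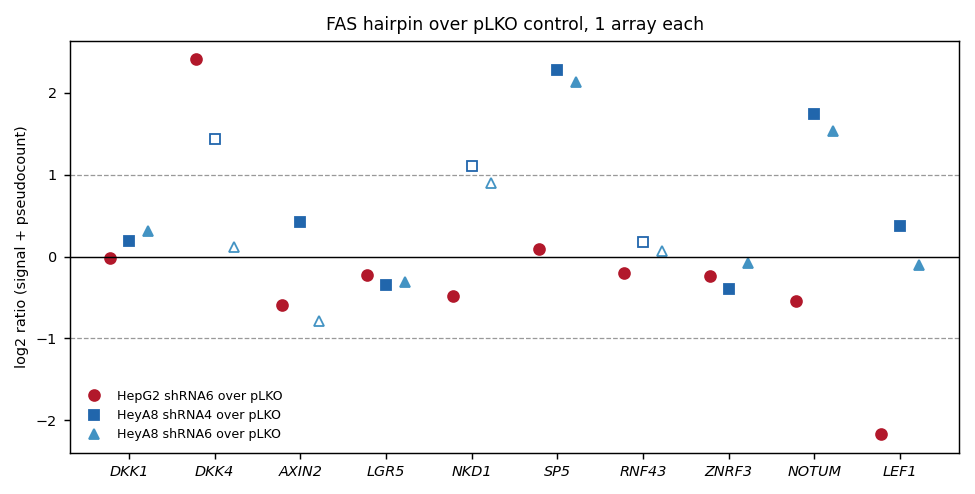
Log2 ratio of each FAS hairpin array over the pLKO array of its line, for the most intense probe set of the 10 genes. Open symbols mark ratios where both arrays were below their medians, and dashed lines mark 2-fold. DKK4 and LEF1 in HepG2 and SP5 and NOTUM in HeyA8 lie beyond 2-fold among the filled points.

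Genes elsewhere in the pathway were measured in the same HepG2 arrays, where 51.7% of all genes were below 0. Of 14 kept other targets 13 were below 0, with a median of -0.23 beside -0.01 over all genes, and FGF9, a growth factor, was lowest at -2.47 (7.57 with shRNA6, 99.1 with pLKO). BAMBI, a decoy receptor, was at -0.63 (1557 and 2421) and BMP4 at -0.46 (1937 and 2667), but MMP7 was at 0.89. KREMEN2 was at -1.74 (22.5 with shRNA6, 105 with pLKO) and WNT16 at -1.27. FGF9, KREMEN2 and WNT16 were dim with shRNA6 and MMP7 with pLKO, so that each was kept through 1 array alone. Of the cytoplasmic core 11 of 18 were below 0, NKD2 lowest at -0.65. CTNNB1 was at -0.17, and the other CTNNB1 probe sets gave -0.41 and 0.14. Periportal genes were above 0 in 7 of 7 kept cases, beside 48.3% of all genes. PCK1, a gluconeogenic enzyme, was at 2.53 (138 and 13.5), but it was dim with pLKO and kept through the shRNA6 array alone. HAL, which degrades histidine, was at 1.61 (503 and 156), and its other kept probe set gave 0.48. Pericentral genes were above 0 in 7 of 10, with a median of 0.07. When arrays were brought to the same median, the all-gene median shifted by -0.11 and the pericentral median turned to -0.05. Relative to all genes the pericentral median was 0.08 before and 0.07 after. Of the hepatocyte markers 2 of 8 were above 0, FGB furthest at 1.06 (12105 and 5792), but 6 of 8 under quantile normalization and 1 of 8 with equal medians, with summed signals of 157343 with shRNA6 and 156437 with pLKO. All 5 kept genes of the stellate cell list were below 0, with a median of -0.96 and summed signals of 7053 with shRNA6 and 12354 with pLKO. For COL1A1 (-2.40) other kept probe sets gave -2.85 and 0.59. The list was read in a cell line, not a tissue, and a link to the target values was not tested.

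The genes whose profile over the 5 human arrays was most like that of DKK4 were sought among 8927 genes above the 75th percentile on at least 1 array. Likeness was the Euclidean distance of log2 levels after each gene was centred on its mean. TSPAN8, a tetraspanin, was nearest (distance 1.13), with 630 and 304 in HepG2 and at most 60.5 in HeyA8. HSD17B2 (1.23), BHMT, a homocysteine methyltransferase (1.25), C8G, a complement component (1.32), and HAL (1.33) followed. Their HepG2 ratios of shRNA6 over pLKO were 1.02, 1.05, 2.03, 0.70 and 1.61 in the order named. Both HepG2 arrays entered the distance, so ratios above 0 follow from the ranking and are a description. None of the other 9 Wnt genes was among these 5 of 8927, and nothing is read from that.

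In HeyA8 both hairpins were set against 1 control array, a comparison other than the one that proposed the genes. Of the 10 genes 7 passed the filter. Of the 4 that were above the median on all 3 arrays, DKK1, LGR5, ZNRF3 and LEF1, 0 rose or fell at an adjusted p of at most 0.05 by limma, as was the case for 0 of 12573 genes (0% higher, 0% lower). FAS, the targeted gene, did not pass either, with log2 ratios of -0.82 with shRNA4 and -1.29 with shRNA6. Nothing is read from the lack of a call, since the fit left 1 residual degree of freedom. At an unadjusted p under 0.05 there were 428 genes, or 3.40%. DKK1 had a fitted difference of 0.25 ± 0.13 (SE, 3 arrays, unadjusted p = 0.0919, adjusted p = 0.9995 by limma). SP5 gave 81.6 with shRNA4 and 72.6 with shRNA6, against 6.87 with pLKO, log2 ratios of 2.28 and 2.13. NOTUM gave 72.3 and 61.5 with the hairpins, against 12.9 with pLKO, log2 ratios of 1.74 and 1.54. Both hairpin arrays lay above the control for SP5 and for NOTUM, but both genes were dim in the control and passed the filter through the hairpin arrays alone, so that their ratios are given without a test.

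The remaining genes had smaller ratios in HeyA8. DKK1 was at 0.19 with shRNA4 and 0.32 with shRNA6, LGR5 at -0.34 and -0.31, and ZNRF3 at -0.39 and -0.07. LEF1 was at 0.38 and -0.10, so that the hairpin arrays lay on either side of the control, though the second value was 0.06 with probe sets averaged. AXIN2 was at 0.42 with shRNA4, and it was dim on the other HeyA8 arrays. NKD1, RNF43 and DKK4 were dim on all 3 HeyA8 arrays, and no ratio is read for them. Of the 4 genes above the median on all 3 arrays, 0 were 2-fold higher, as 2.37% of all genes were with shRNA4 and 2.02% with shRNA6, and 0 were 2-fold lower, as 2.38% and 2.21% were. Both hairpin arrays share the control.

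No other pathway gene passed the test in HeyA8, where no gene of any kind did. Fitted differences had a median of -0.19 over 12 kept receptors and of 0.05 over 17 genes of the cytoplasmic core. The median over all genes was 0.01. In each list 0 genes had an adjusted p of at most 0.05 by limma. KREMEN2 was at 1.49 with shRNA4 (99.8 against 27.5 with pLKO), WNT9A at -1.45 with shRNA4 and -1.67 with shRNA6 (15.9 and 11.9, against 65.1 with pLKO), and WNT16 at 2.14 with shRNA6 (63.1 against 4.63 with pLKO). ROR1, a receptor of WNT5A, was at -1.21 with shRNA6 (51.2 against 135 with pLKO), and at 0.10 when its probe sets were averaged. KREMEN2 and WNT16 were dim in the control, and WNT9A and ROR1 with the hairpins named, so that each ratio was kept through 1 array alone. CTNNB1 was at 0.22 and 0.04 with shRNA4 and shRNA6. WNT5B, well above the median in HeyA8, gave 2251 with shRNA4, against 1400 with pLKO, a log2 ratio of 0.68.

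In mouse liver, where fewer cells of a type and less RNA per cell cannot be told apart, the question was whether the same genes differed between Fas knockout and wild type. None of the 7 genes above the median on both arrays was 2-fold higher or 2-fold lower, where 1.77% and 2.57% of all genes were. Notum gave 577 in the knockout and 638 in the wild type, a log2 ratio of -0.14. Znrf3 gave 665 and 725 (-0.12), and its dimmer probe set 65.8 and 110 (-0.60). Notum and Znrf3 lay above the 75th percentile of both liver arrays. Rnf43 gave 238 in the knockout and 361 in the wild type, a log2 ratio of -0.56, the lowest of the 7. Axin2 gave 226 and 149, a log2 ratio of 0.55, the highest, but with its dim second probe set averaged in the ratio was -0.02. Lgr5 gave 275 and 257 (0.09) and Sp5 91.5 and 102 (-0.13).

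Nkd1 gave 81.0 in the knockout and 119 in the wild type (-0.46), while another probe set gave 88.7 and 75.7 (0.18), so that its direction differs between probe sets. Dkk1 gave 90.1 in the knockout, just above the median, and 57.4 in the wild type, below it (0.51). Dkk4 was dim on both arrays, at 36.3 and 38.3, and so was Lef1, at 48.4 and 76.7. The median of the 7 genes above the median on both arrays was -0.13, beside -0.02 over all genes, and 2 were above 0, as were 47.3% of all genes, and 5 below, as were 52.7%. Lgr5 turned to -0.06 with probe sets averaged.

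**Figure D5:**
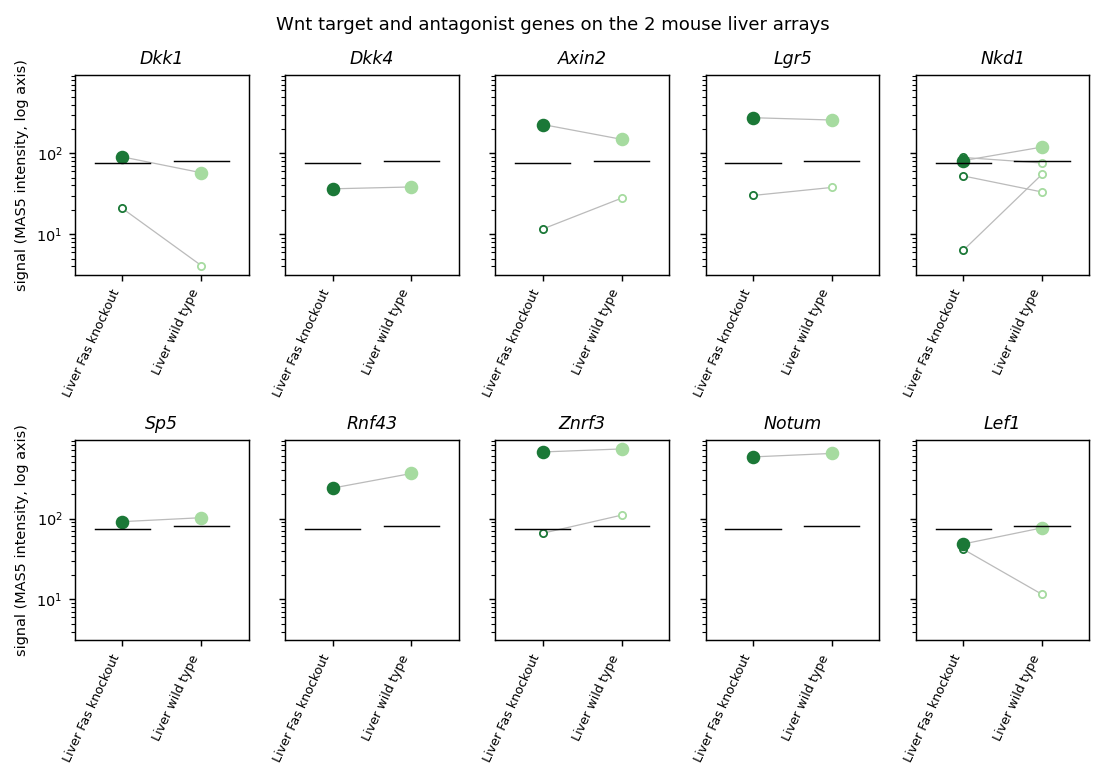
Signal (MAS5 intensity, log axis) of the 10 genes on the Fas knockout and wild-type mouse liver arrays. Large filled points are the most intense probe set, small open points other probe sets, grey lines join a probe set, and black dashes mark each array median. Notum and Znrf3 lie well above the median, and Dkk4 lies below the median on both arrays.

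The wider target and zonation lists were read in the same livers, where 52.7% of all genes were below 0 and 47.3% above. Of 11 kept other targets 9 were below 0 in the knockout, with a median of -0.67. Sox9, a factor of bile duct cells, gave 10.3 in the knockout and 147 in the wild type (-2.44), and Myc, a growth-promoting factor, 861 and 1934 (-1.15). Sox9 was dim in the knockout and kept through the wild type alone. Cd44 was at -0.87 (255 and 483) and Bmp4 at -0.87 (227 and 431). Pericentral genes were above 0 in 10 of 15 kept cases, with a median of 0.11. Glul, the glutamine synthetase of the cells next to the central vein, gave 16122 in the knockout and 11015 in the wild type (0.55), with its other probe set at 0.31. Slc1a4, at 1.05, had another probe set at -1.28. Periportal genes had a median of 0.02, which turned to -0.02 under quantile normalization, with Hal at 0.52 (5506 and 3828) and Ass1 at -0.72 (517 and 863). Of 12 kept receptors 10 were below 0, with Fzd3 at -0.84 and Lrp5 at 0.70, and Apc2 of the cytoplasmic core was at -1.73 (23.2 and 124). Fzd3 and Apc2 were dim in the knockout and Lrp5 in the wild type. Ctnnb1 gave 12176 and 11809 (0.04).

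Markers of other liver cells moved beside these lists. Counts here stand beside the 52.7% of all genes that were below 0. All 5 endothelial markers were below 0 in the knockout, with a summed signal of 3368 in the knockout and 4325 in the wild type. The Kupffer cell and immune markers summed to 4991 and 5928, with 4 of 5 kept below 0. Hepatocyte markers summed to 184256 in the knockout and 181634 in the wild type. Of 6 stellate cell markers 5 were below 0, or 4 under either other scaling, and they summed to 4859 in the knockout and 5531 in the wild type. Bile duct markers did not share a direction, with Krt7 at 76.3 in the knockout and 9.55 in the wild type, Krt19 at 70.6 and 24.5, dim in both, and Epcam at 53.5 and 198. Krt7 was just above the median in the knockout and dim in the wild type. Epcam was dim in the knockout, and its other kept probe set gave a log2 ratio of 0.01. The part of these markers in the target values was not tested.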

How the data were processed

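The deposited intensities of 5 human and 2 mouse arrays came from MAS5 (per the submitters' processing notes; settings: not given in the sources used here). Their 2% trimmed mean was 500.0 to 500.1 on each array, and the scaling was kept. The number of arrays, 1 per group, limits the precision. After removal of control probe sets (62 of 54675 human, 64 of 45101 mouse), symbols were taken from the platform annotation, which can be old, and probe sets with several symbols (1801 human, 932 mouse) or none (11721 and 9160) were not named. The probe set of highest mean signal stood for a gene, with _x_at sets as a last resort. Values became log2 of signal plus the 25th percentile of the table. Genes dim on every array of a comparison were dropped. With limma 3.58.1 (R 4.3.3), cell line and knockdown were fitted to the human arrays (2 residual degrees of freedom) and knockdown to the HeyA8 arrays (1), with a trended prior variance and Benjamini-Hochberg adjustment over all kept genes. The fits were tested on simulated data. Comparisons of single arrays are given by size. Besides the 10 genes, FAS and CTNNB1, the rule for named genes took up to 4 genes per list and comparison by absolute log2 ratio, and the 5 nearest to DKK4. The 10 genes and the lists were chosen with earlier results of these data known. Alternatives changed pseudocount, scaling, filter, probe set choice, variance trend, the knockdown term and the arrays included. Tables and plots were made in Python 3.11.15 with numpy 2.4.6, pandas 2.3.3 and matplotlib 3.10.9.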

Additional observations from a re-analysis of the deposited data

Results flagged for a closer look

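The knockdown ratios of DKK1 and NOTUM were flagged because their sign in HepG2 differed from that with both HeyA8 hairpins. For DKK1 the HepG2 ratio was too small to give a direction. DKK1 had a log2 ratio of -0.017 in HepG2 with shRNA6, and of 0.19 with shRNA4 and 0.32 with shRNA6 in HeyA8. NOTUM had -0.54 in HepG2 with shRNA6, and 1.74 with shRNA4 and 1.54 with shRNA6 in HeyA8, where its control signal was dim. The difference between the lines was not tested, since the HepG2 comparison chose the genes and each ratio rests on 1 array over 1 control. Over the alternatives the HepG2 ratio of DKK1 ranged from -0.13 to 0.05, the latter under quantile normalization.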

How the results depend on the processing

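No paired analysis was possible because each group held 1 array and the labels give no replicate numbers. In the cell line comparison AXIN2, DKK1, LGR5, NOTUM, SP5 and ZNRF3 passed in the same direction under all 16 settings with a test, with adjusted p by limma of at most 0.00725. LEF1 passed under 15 of 16, the exception being averaged probe sets. Leaving out an array in turn gave between 2699 and 4223 genes higher and between 2776 and 3813 lower, against 4176 and 3903 with all arrays. The 2699 was without HepG2 shRNA6, where 1 residual degree of freedom was left. With every probe set tested on its own 7297 probe sets were higher and 7318 lower. In HeyA8 DKK1, LGR5, ZNRF3 and LEF1 passed under no setting, the lowest adjusted p by limma being 0.992, and leaving out a hairpin array left no test. Without the HeyA8 control no value could be had. Counts of genes at least 2-fold higher and lower depended on the filter and pseudocount, which by construction set how far dim genes count. With the table median as pseudocount they were 94 and 81 in HepG2, 74 and 75 with shRNA4 and 42 and 53 with shRNA6 in HeyA8, and 41 and 97 in mouse liver. With no filter they were 1284 and 971, 1144 and 990, 902 and 1027, and 690 and 865 in the same order. With the stricter filter (an array above its 75th percentile) they were 29 and 40, 16 and 40, 6 and 24, and 18 and 26. With averaged probe sets 191 genes were lower with shRNA4 in HeyA8. ROR1 with shRNA6 in HeyA8 turned to 0.10 with averaged probe sets. The causes of the LEF1 and ROR1 changes were not tested. Over the alternatives the HepG2 ratio ranged from 2.03 to 2.53 for DKK4 and from -3.04 to -1.08 for LEF1, and the HeyA8 difference from 1.03 to 3.31 for SP5 and from 0.80 to 2.28 for NOTUM. The comparison of the shRNA6 arrays alone was chosen after seeing the data.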
